A study of Rattus norvegicus with 8 samples.

Results

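Matn1, Cnmd, Chad, Comp, Clec3a and Mia encode proteins of the extracellular matrix or secreted space of cartilage that are not collagens. Their transcripts were followed in primary rat chondrocytes given the inflammatory cytokine TNFα, the MEK1/2 inhibitor U0126, or both. All probe sets whose annotation named only 1 of these genes were taken, which gave 6 of the 31099 probe sets of the array, 1 for each gene. The values were read on 8 Affymetrix RAT230_2.0 arrays, 1 for each of 4 treatments in each of 2 independent experiments, numbered here by the replicate number in the labels.

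The chondrocytes came from femoral condyles of Sprague Dawley rats that were 1 day old, and were grown as a monolayer on plastic. All cultures were held without serum overnight. Cultures labelled U0126+TNFα received U0126 for 30 min and then 30 ng/ml TNFα for 24 h. Cultures labelled TNFα received DMSO for 30 min and then 30 ng/ml TNFα for 24 h. U0126 cultures received the inhibitor and then the bovine serum albumin vehicle, and DMSO cultures received DMSO and then that vehicle, over the same times. The arrays therefore describe neonatal chondrocytes in monolayer without serum.

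Cartilage is a tissue with few cells and much matrix, in which fibrils of type II collagen hold the proteoglycan aggrecan. Noncollagenous proteins link these networks to each other and to the cells, or keep blood vessels out of the tissue. TNFα is known to lower the output of cartilage matrix by chondrocytes, and MEK1/2 are the kinases that activate ERK1/2, 1 of the pathways downstream of TNFα. The comparisons below ask how far each of the 6 transcripts moved with TNFα and how far U0126 altered that movement.

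Promoter sequences are shown because the study examined transcription factors downstream of MEK1/2. They were matched by symbol to a RefSeq table on rat build GRCr8, and 3 of the 6 genes were matched, namely Mia, Comp and Chad. Matn1, Cnmd and Clec3a are the other members. Each line gives the 250 bases before the annotated start, 5′ to 3′ on the strand of the gene. They lie at chr1:91603020-91603269 on the minus strand for Mia, chr16:19089549-19089798 on the minus strand for Comp and chr10:80008795-80009044 on the plus strand for Chad. Capitals mark the letters of an Sp1 motif, GGGCGG, or of a TATA motif, TATAAA.
Mia: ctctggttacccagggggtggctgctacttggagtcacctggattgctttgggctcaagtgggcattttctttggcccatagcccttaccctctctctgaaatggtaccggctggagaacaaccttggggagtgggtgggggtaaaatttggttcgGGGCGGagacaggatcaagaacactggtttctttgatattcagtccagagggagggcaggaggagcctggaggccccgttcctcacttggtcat
Comp: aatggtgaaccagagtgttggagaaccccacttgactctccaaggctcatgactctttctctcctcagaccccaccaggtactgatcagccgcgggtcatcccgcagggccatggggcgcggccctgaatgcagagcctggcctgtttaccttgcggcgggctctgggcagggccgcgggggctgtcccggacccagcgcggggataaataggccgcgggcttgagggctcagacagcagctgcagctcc
Chad: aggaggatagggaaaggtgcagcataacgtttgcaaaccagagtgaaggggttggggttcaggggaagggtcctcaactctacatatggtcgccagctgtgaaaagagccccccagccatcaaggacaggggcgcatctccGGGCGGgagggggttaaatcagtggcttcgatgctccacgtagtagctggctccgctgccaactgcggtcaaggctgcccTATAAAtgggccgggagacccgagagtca

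The Mia and Chad promoters each held 1 Sp1 match, 94 bases before the start for Mia and 109 for Chad, and Chad held 1 TATA match 29 bases before the start. Of 33469 rat promoter windows of the same length, 30.5% held the Sp1 letters and 12.9% the TATA letters on either strand. No match was found in the 3 promoters for the other motifs searched on both strands of the same windows. They were Egr (GCGNGGGCG, in 4.29% of windows), Sox (ACAANG, 36.9%), NF-kB (1.3%) and AP-1 (TGANTCA, 6.34%). The matches did not overlap each other. A match is a description of the letters and not evidence of a bound site. GC content was 55.2% for Mia, 64.8% for Comp and 58.4% for Chad.

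The 8 arrays had medians between 365.1 and 378.2 intensity units, and each array was centred on its median on the log2 scale. Apart from these medians, every intensity given here is the linear value after centring, scaled back by the mean log2 median of the arrays. The named folds and tests use the centred log2 values. Whether a dim probe set exceeded background was not measured, and levels of different probe sets are not set against each other. Each comparison was tested with limma across 31042 probe sets with the experiment as a block, and a probe set was called where its Benjamini-Hochberg adjusted p was under 0.05. The p-values measure how far the differences between treatments varied between these 2 experiments, with the variance moderated over all probe sets. The block takes out the mean difference between the experiments.

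Marker genes of the labelled cell type and of others were read as intensities, which do not rank genes. Of 6 listed chondrocyte markers, 5 were measured, among them Col2a1, the main fibrillar collagen of cartilage, at 24282 to 32104 over the 8 arrays. Col1a1, the type I collagen gene, listed here as a fibroblast marker, was at 28732 to 34888. The study states that cultures grown this way held almost only chondrocytes. The 10 macrophage markers ran from 30.0 for Adgre1 to 1659.6 for Cd14, with the leucocyte antigen gene Ptprc at 60.6 to 69.7, and the 4 measured endothelial markers ran from 72.7 for Pecam1 to 600.0 for Tek. The share of each cell type was not measured.

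TNFα lowered 5 of the 6 transcripts. Clec3a and Mia moved most, to 0.37 and 0.40 of the DMSO level as the geometric mean of both experiments, followed by Cnmd at 0.57, Matn1 at 0.66 and Chad at 0.76. Comp was at 0.86 and did not pass the test. Over all probe sets tested, 1.78% were called lower with TNFα. The members' median log2 fold change was -0.70, against -0.02 over all probe sets.

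Clec3a encodes a C-type lectin of cartilage that is related to tetranectin. Its intensities in experiments 1 and 2 were 2244 and 622 with U0126+TNFα, 823 and 349 with TNFα, 2718 and 704 with U0126, and 3512 and 594 with DMSO. The TNFα array was the lowest within each experiment, but the TNFα and DMSO groups overlapped because experiment 1 was far above experiment 2. TNFα gave 0.23-fold of DMSO in experiment 1 and 0.59-fold in experiment 2, and the log2 fold change was -1.43 (SE 0.26, limma adjusted p = 0.0299).

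Mia encodes a small secreted protein, also called cartilage-derived retinoic acid-sensitive protein, that is made by chondrocytes. Its intensities in experiments 1 and 2 were 3230 and 1888 with U0126+TNFα, 1887 and 1303 with TNFα, 5547 and 2896 with U0126, and 5698 and 2746 with DMSO. The TNFα arrays lay below all others of their experiment and did not overlap the DMSO arrays, while the U0126+TNFα arrays lay between the TNFα and the DMSO array of each experiment. The log2 fold change with TNFα was -1.33 (SE 0.12, limma adjusted p = 0.0027), from 0.33-fold and 0.47-fold in the experiments.

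Cnmd encodes chondromodulin, a glycoprotein of avascular cartilage that inhibits the growth of blood vessels. Its intensities in experiments 1 and 2 were 16469 and 8533 with U0126+TNFα, 9005 and 5189 with TNFα, 19507 and 9892 with U0126, and 17550 and 8104 with DMSO. Each experiment had its lowest value with TNFα and its highest with U0126, and the TNFα and DMSO groups overlapped across experiments. The log2 fold change with TNFα was -0.80 (SE 0.08, limma adjusted p = 0.00492), from 0.51-fold and 0.64-fold.

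Matn1 encodes matrilin 1, which forms filaments that connect collagen fibrils with proteoglycans. Its intensities in experiments 1 and 2 were 16180 and 12207 with U0126+TNFα, 11256 and 9193 with TNFα, 18875 and 14370 with U0126, and 17784 and 13170 with DMSO. Both TNFα arrays lay below both DMSO arrays, and U0126 gave the highest value of each experiment. The log2 fold change with TNFα was -0.59 (SE 0.06, limma adjusted p = 0.00569), from 0.63-fold and 0.70-fold.

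Chad encodes chondroadherin, a leucine-rich repeat protein that binds collagen and an integrin of the chondrocyte surface. Its intensities were low on every array, at 142 and 113 with U0126+TNFα, 138 and 118 with TNFα, 165 and 132 with U0126, and 202 and 141 with DMSO in experiments 1 and 2. It was the only member that did not pass a filter that removed the lowest 40% of probe sets by mean level. The TNFα and U0126+TNFα arrays were near each other and below the DMSO array of each experiment, and the TNFα and DMSO groups did not overlap. The log2 fold change with TNFα was -0.40 (SE 0.08, limma adjusted p = 0.042), from 0.69-fold and 0.84-fold.

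Comp encodes cartilage oligomeric matrix protein, a member of the thrombospondin family that binds collagens. Its intensities in experiments 1 and 2 were 16951 and 11396 with U0126+TNFα, 14741 and 8925 with TNFα, 16659 and 12171 with U0126, and 15082 and 11835 with DMSO. In experiment 1 the TNFα and DMSO arrays were close, and in experiment 2 the TNFα array was the lowest. The log2 fold change with TNFα was -0.22 (SE 0.09, limma adjusted p = 0.199), with 0.98-fold and 0.75-fold in the experiments. The 95% interval of its log2 fold change was -0.44 to 0.00.

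**Figure D1:**
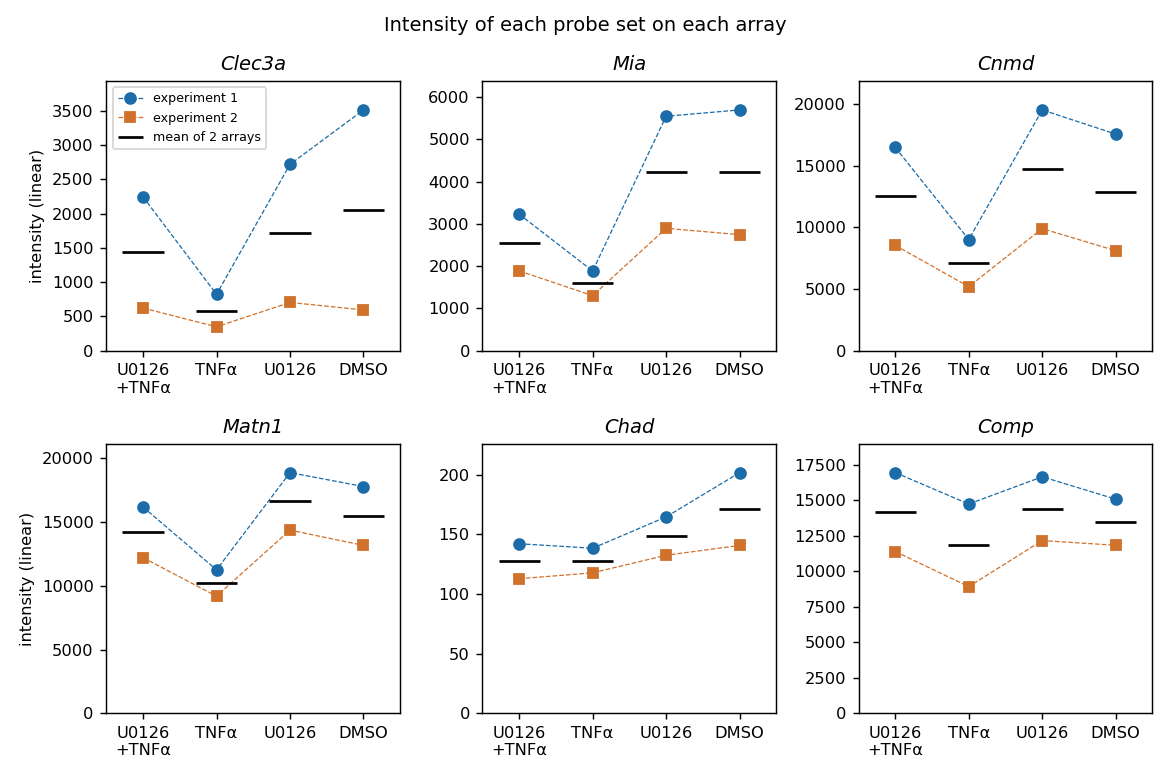
Linear intensity, after centring of each array, of each of the 6 probe sets (vertical axis, from 0) in the 4 treatments (horizontal axis). Circles are experiment 1, squares experiment 2, dashed lines join arrays of 1 experiment, and bars are means of 2 arrays. Clec3a with DMSO was 3512 in experiment 1 and 594 in experiment 2, a ratio of 5.91, which was the largest ratio between experiments among the 6 genes and 4 treatments.

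In both experiments, Matn1, Cnmd, Clec3a and Mia had lower folds with TNFα than Chad and Comp. Clec3a had the lowest fold in experiment 1, at 0.23, and Mia in experiment 2, at 0.47. The 95% intervals of the log2 fold changes of Clec3a (-2.04 to -0.82) and Mia (-1.62 to -1.05) overlapped, as did those of Cnmd (-1.003 to -0.60) and Matn1 (-0.74 to -0.44). Chad (-0.59 to -0.21) and Comp also overlapped. The differences between genes were not tested.

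Chad and Clec3a were the least secure of the 5 calls. Both calls were lost when any 1 of 6 arrays was left out, namely the DMSO or TNFα array of experiment 1 or any array that held U0126, and without the TNFα array of experiment 2 only Chad was lost. The limma adjusted p then lay between 0.0549 and 0.205 for Chad and between 0.063 and 0.0936 for Clec3a. The call for Chad was also lost with quantile normalization (adjusted p = 0.0737). The summed intensity of the 5 chondrocyte markers was 86721 and 56930 with TNFα, against 111899 and 71505 with DMSO, and 4 of these 5 fell. The part of a change in cell make-up in the members' falls was not tested, and in RNA from whole cultures, fewer cells of a type and less RNA per cell cannot be told apart.

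Marker lists of other cell types were summed in the same way. Such a sum mainly follows the brightest probe sets of its list, such as Col1a1 among the fibroblast markers, and says little about the dimmer ones. Fibroblast markers, 7 of 7 measured, summed to 91103 and 106323 with TNFα, against 88894 and 107033 with DMSO, with Pdgfra rising and 6 not passing. Macrophage markers, 10 of 10 measured, summed to 3554 and 3794 with TNFα, against 2717 and 3467 with DMSO, with Cd68 rising and 9 not passing. Osteoblast markers, 3 of 4 measured, summed to 189 and 249 with TNFα, against 225 and 556 with DMSO, tenocyte markers, 2 of 3 measured, to 2000.1 and 4379 with TNFα, against 2494 and 4461 with DMSO, and endothelial markers, 4 of 5 measured, to 492 and 780 with TNFα, against 502 and 768 with DMSO. By limma, 0 genes of these 3 lists were called. Of the 7 markers of hypertrophic chondrocytes, Spp1 and Mmp13 rose and 5 did not pass. The sum was 36450 and 10575 with TNFα, against 4920 and 5089 with DMSO, and with TNFα it was made up mostly of Spp1 and Mmp13. The part of these lists in the members’ falls was not tested.

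U0126 given before TNFα left 1 of the 6 transcripts higher than with TNFα alone by the test. Cnmd was 1.83-fold and 1.64-fold of the TNFα level in experiments 1 and 2 (log2 fold change 0.79, SE 0.08, limma adjusted p = 0.0331), and 0.129% of all probe sets were called higher in this comparison. Clec3a was at 2.73-fold and 1.79-fold, Mia at 1.71-fold and 1.449-fold and Matn1 at 1.44-fold and 1.33-fold, with limma adjusted p-values of 0.152, 0.0966 and 0.0591. Comp was at 1.15-fold and 1.28-fold (adjusted p = 0.306). Chad was at 1.03-fold and 0.96-fold, with a 95% interval of its log2 fold change of -0.20 to 0.18. The median over the members was 0.56, against 0.01 over all probe sets.

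The call for Cnmd was lost without either U0126 array (limma adjusted p = 0.091 each), without the TNFα array of experiment 1 (0.0678) and without the U0126+TNFα array of either experiment (0.239 and 0.334). With each array left out in turn, the log2 fold change ran from 0.685 to 0.904 for Cnmd and from 0.407 to 0.526 for Matn1. It ran from 0.701 to 1.58 for Clec3a, 0.461 to 0.849 for Mia, 0.144 to 0.41 for Comp and -0.0899 to 0.0663 for Chad.

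**Figure D2:**
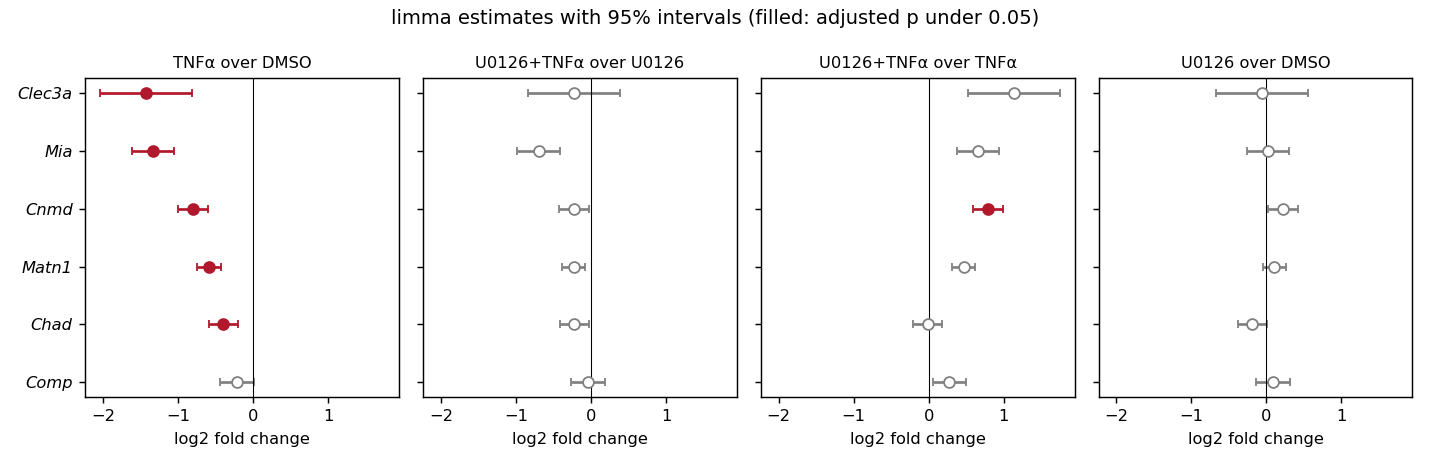
limma log2 fold changes (horizontal axes) of the 6 genes in 4 comparisons, with 95% intervals from all 8 arrays. Filled points passed an adjusted p of 0.05. TNFα over DMSO has 5 filled points, U0126+TNFα over TNFα has Cnmd alone, and the other panels have none.

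In cells already given U0126, 0 of the 6 were called lower with TNFα, against 0.406% of all probe sets. Mia came nearest, at 0.58-fold and 0.65-fold of the U0126 level (log2 fold change -0.70, SE 0.12, limma adjusted p = 0.0519), and it passed with a trended or a robust prior, with 1 probe set a gene, with only the arrays compared and without either TNFα array (adjusted p between 0.00776 and 0.0459). The other folds lay between 0.83 and 1.02 in both experiments. At an unadjusted limma p under 0.05, 4 of the 6 passed, all lower, against 3890 of the 31042 probe sets tested, counted in either direction.

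U0126 alone changed 0 of the 6, against 0.058% of all probe sets called in either direction by limma. At an unadjusted limma p under 0.05, 1 of the 6 passed, namely Cnmd, against 4118 of the 31042 probe sets tested, counted in either direction. Cnmd stood at 1.11-fold and 1.22-fold of DMSO (limma, unadjusted p = 0.0352, adjusted p = 0.347). The 95% intervals of the log2 fold changes were -0.05 to 0.26 for Matn1, -0.38 to 0.00 for Chad, -0.13 to 0.32 for Comp, -0.27 to 0.30 for Mia and -0.68 to 0.55 for Clec3a. The last of these is wide, as U0126 gave 0.77-fold in experiment 1 and 1.19-fold in experiment 2.

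With both agents against DMSO, 2 of the 6 were called lower, as were 0.954% of all probe sets. They were Mia (0.57-fold and 0.69-fold, log2 fold change -0.68, limma adjusted p = 0.0365) and Chad (0.70-fold and 0.80-fold, -0.41, adjusted p = 0.0488). Both calls were lost without either DMSO, either U0126 or either U0126+TNFα array, with limma adjusted p-values from 0.0742 to 0.299. Chad was also lost with quantile normalization (0.0826) or no centring (0.0558). Cnmd stood at 0.94-fold and 1.05-fold of DMSO, with a 95% interval of the log2 fold change of -0.21 to 0.19.

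The difference between the responses to TNFα, with U0126 minus without, was positive for all 6 genes. It was 1.20 for Clec3a (SE 0.37), 0.64 for Mia (SE 0.17), 0.57 for Cnmd (SE 0.12) and 0.36 for Matn1 (SE 0.09) on the log2 scale. These 4 passed an unadjusted limma p of 0.05, at 0.0136, 0.00731, 0.00199 and 0.00578, as did 4.3% of all probe sets in the same direction. None of the 6 passed after adjustment, with adjusted p-values of 0.522, 0.499, 0.499 and 0.499 for those 4. The differences for Chad, 0.18 (95% interval -0.09 to 0.45), and Comp, 0.19 (-0.13 to 0.50), had intervals that included 0.

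The share of the log2 response to TNFα that was left with U0126 ranged widely between genes. In experiments 1 and 2 it was 13.2% and 23.2% for Clec3a, 25.4% and 33.2% for Cnmd, 33.7% and 45.4% for Matn1, and 48.9% and 57.4% for Mia. Among these 4 genes Clec3a kept the least in both experiments. Chad kept 39.0% in experiment 1 and 90.5% in experiment 2, on a small response. Comp kept 23.3% in experiment 2, and no share is given for experiment 1, in which its response to TNFα was near 0.

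**Figure D3:**
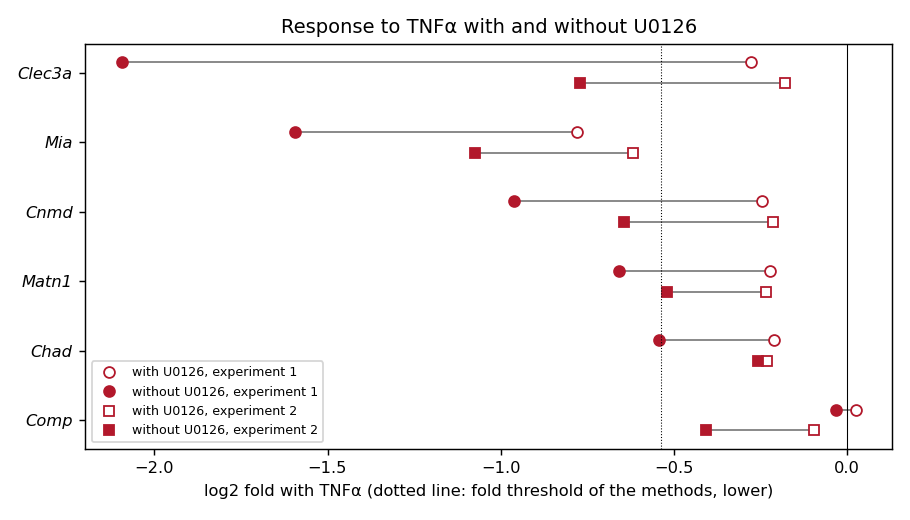
log2 fold with TNFα (horizontal axis) for each gene, over DMSO where U0126 was absent (filled) and over U0126 where it was present (open), for experiment 1 (circles) and experiment 2 (squares). The dotted line marks the fold threshold of the methods, -0.54 on this scale. Clec3a in experiment 1 was at -0.28 with U0126 and -2.09 without it, and Mia lay past the line with U0126 in both experiments.

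By the rule of the methods, a gene is regulated by TNFα where its log2 fold change against DMSO has a size of at least 0.54, the same way, in each experiment. It is MEK/ERK dependent where the log2 fold change of U0126+TNFα over U0126 then stays short of that size in each experiment. Of the 6 genes, 3 were lower past this rule, namely Clec3a, Mia and Cnmd, against 0.37% of all probe sets. Clec3a and Cnmd counted as dependent, against 0.0966% of all probe sets that were lower and dependent, and Mia did not, since it was still at -0.78 and -0.62 with U0126. Matn1 was just outside the rule, at -0.66 in experiment 1 and -0.52 in experiment 2, and Cnmd just inside it, at -0.96 and -0.64. With quantile normalization, a fold threshold of 1.3 or the mean fold of both experiments, Matn1 was past the rule and dependent, which gave 4 genes past it and 3 dependent. The share of all probe sets past the rule was not counted under these settings. The rule has no p-value.

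All 6 transcripts were higher in experiment 1 than in experiment 2 under every treatment, which was true of 27.3% of all probe sets. Other cartilage genes shared this, so it was not particular to the 6. It held for all 6 cartilage collagens listed below and for Fmod, Acan, Hapln1, Prelp, Scrg1 and Snorc, but not for Cytl1, Cilp2 and Ucma. Hapln1 with DMSO was 21181 and 7810. The summed fibroblast markers were lower in experiment 1 under every treatment, at 88894 and 107033 with DMSO. The geometric mean of the 4 ratios was 3.73 for Clec3a, 1.95 for Cnmd, 1.77 for Mia, 1.44 for Comp, 1.303 for Matn1 and 1.27 for Chad. The median over the members was 1.60, against 1.02 over all probe sets. For Clec3a the ratio was 3.61 with U0126+TNFα, 2.36 with TNFα, 3.86 with U0126 and 5.91 with DMSO, so that its DMSO arrays differed by more than any treatment moved it within experiment 2. The cause of the difference between experiments was not tested. The experiment is a block in the fit, and without it 0 of the 6 were called for TNFα.

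Relatives of the members by protein family did not share 1 direction between experiments. Tnmd, the tenomodulin gene and closest relative of Cnmd, was 766 and 3656 with U0126+TNFα, 780 and 3246 with TNFα, 1111 and 3560 with U0126 and 1106 and 3250 with DMSO in experiments 1 and 2. It was thus lower in experiment 1 under every treatment, at a geometric mean ratio of 0.27. Clec3b, the tetranectin gene, was also lower in experiment 1, at 0.32, and Chadl, which encodes a chondroadherin-like protein, was higher, at 2.30.

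**Figure D4:**
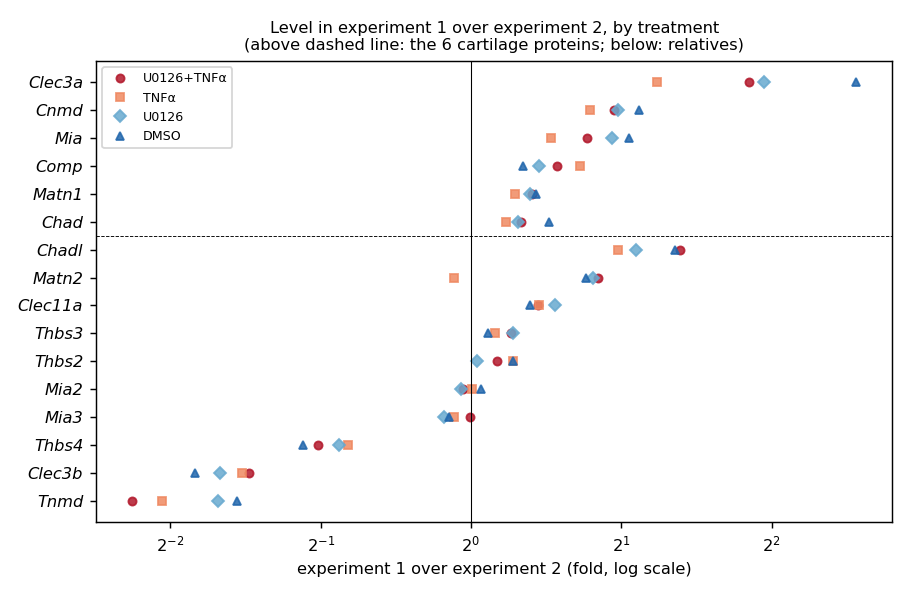
Level in experiment 1 over experiment 2 (horizontal axis, fold on a log scale) for the 6 genes above the dashed line and 10 relatives below it, with a symbol for each treatment. All 6 genes lie right of 1 under every treatment, with Clec3a at 5.91 for DMSO, while Tnmd and Clec3b lie left of it.

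With TNFα, 10 of 14 listed relatives were measured, of which 1 rose, 1 fell and 8 did not pass. Chadl rose, at 1.25-fold and 1.63-fold of DMSO (log2 fold change 0.51, limma adjusted p = 0.0482). Its intensities in experiments 1 and 2 were 3901 and 1489 with U0126+TNFα, 2473 and 1257 with TNFα, 2003 and 937 with U0126 and 1974 and 772 with DMSO. Chadl was highest with both agents, and it was also called higher with U0126+TNFα than with U0126 (0.81, adjusted p = 0.024). Clec11a, another C-type lectin gene, fell to 0.79-fold and 0.76-fold (-0.37, adjusted p = 0.0281).

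Several other cartilage genes also fell with TNFα. Of 6 cartilage collagen genes, 3 fell with TNFα and 3 did not pass, with a median log2 fold change of -0.33. They were Col11a2 (-0.50, limma adjusted p = 0.0133), Col9a3 (-0.35, 0.0305) and Col9a1 (-0.34, 0.0479), which encode chains of fibril-associated or fibril-forming cartilage collagens. Col2a1 was at -0.12 (limma adjusted p = 0.273) and did not pass. By real-time PCR, however, the study found Col2a1 lowered by TNFα and sensitive to U0126. Its own array analysis had not identified Col2a1 as MEK/ERK sensitive. Of 14 listed genes of other cartilage matrix and secreted proteins, 9 were measured, of which 4 fell and 5 did not pass, with a median of -0.54. These were Scrg1 (-0.84, 0.00234), Acan, which encodes aggrecan (-0.56, 0.0064), Hapln1, the link protein (-0.55, 0.0263) and Snorc (-0.64, 0.0352).

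With U0126+TNFα over TNFα, the median log2 fold change was 0.32 for the collagens, with 0 of 6 called, and 0.17 for the other cartilage genes, with Acan called (0.68, limma adjusted p = 0.0215) and 8 not. Hapln1 was at 0.57 (limma adjusted p = 0.0829). The study, by its fold rule, classed both Acan and Hapln1 as MEK/ERK dependent on these arrays. Its real-time PCR also found both lowered by TNFα and sensitive to U0126. Scrg1 was the 1 gene of these lists that was called lower with U0126+TNFα than with U0126 (-0.63, adjusted p = 0.0125). The differences between the members and these lists were not tested.

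**Figure D5:**
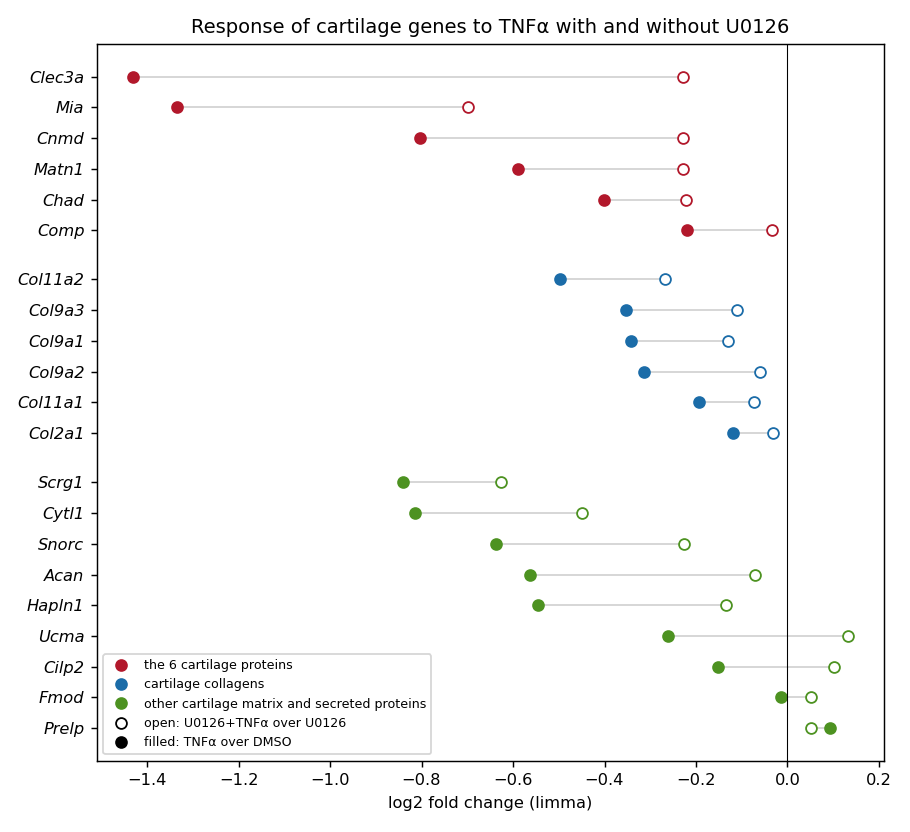
limma log2 fold change (horizontal axis) for U0126+TNFα over U0126 (open) and TNFα over DMSO (filled) for the 6 genes, 6 cartilage collagens and 9 other cartilage matrix and secreted proteins. Clec3a, at -1.43, and Mia, at -1.33, lie farthest left among the filled points, while Prelp and Fmod lie near 0.

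Regulators of cartilage genes were read from a further list of 10, of which 6 were measured and 0 passed the test for TNFα or for U0126. Egr1, an immediate early transcription factor gene, was 1762 and 1490 with U0126+TNFα, 3923 and 3618 with TNFα, 1263 and 1660 with U0126 and 3571 and 4644 with DMSO in experiments 1 and 2. Its arrays with U0126 lay below those without it, whether or not TNFα was present, and the values with TNFα and with DMSO overlapped. The log2 fold change was -1.49 for U0126 over DMSO (limma adjusted p = 0.0527) and -1.22 for U0126+TNFα over TNFα (0.0556). Egr2, a related gene, was called lower with U0126+TNFα than with TNFα (-0.78, adjusted p = 0.0397). Both were called lower with U0126+TNFα than with DMSO, Egr1 at -1.33 (limma adjusted p = 0.0124) and Egr2 at -0.95 (0.00562).

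Across the 8 arrays, after the mean of each experiment was removed, the log2 values of the members followed each other to different degrees. Pearson's r was 0.986 between Matn1 and Cnmd, 0.957 between Matn1 and Mia, and 0.944 between Cnmd and Clec3a. Chad and Comp were less like the others. For Chad r lay between 0.166 (with Comp) and 0.815 (with Mia), and for Comp it was 0.774 with Cnmd, 0.77 with Matn1, 0.612 with Mia and 0.565 with Clec3a. The arrays are shared by all genes, and these values are descriptions.

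The genes most like each member were sought among 10509 genes by the same measure. For Matn1 they were Zdhhc8 (r = 0.991), Zfp939 (0.99) and Serpinh1 (0.988), a collagen chaperone gene. For Cnmd they were Zdhhc8 (0.991), Tars3 (0.989) and C1qtnf3 (0.989), the last of which was at 0.41-fold with TNFα. For Clec3a they were Actg1 (0.995), Lrrc59 (0.984) and PCOLCE2 (0.98), which was at 0.54-fold with TNFα, and for Mia they were Fkbp14 (0.994), Sec16b (0.989) and Cd248 (0.987). Chad was most like Cbfa2t3 (0.991), Mtarc1 (0.983) and Sec61g (0.978), and Comp most like Kcnip3 (0.985), Ccnd2 (0.974) and Man1b1 (0.962). Several of these genes moved little in size, such as Zdhhc8, at 0.91-fold with TNFα, as r measures the pattern and not the extent.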

How the data were processed

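Chondrocyte RNA was labelled in 1 colour on 8 arrays, 1 for each of 4 treatments and 2 experiments, grouped from the labels. The deposited intensity is 1 linear summary value per probe set and array, and the submitters' processing notes name RMA, whose version is not given in the sources used here. The study's methods describe GeneSpring with a floor, a median for each chip and division by DMSO, and 0 values were under 0.01. log2 of the intensity was centred on the median of 31099 probe sets of each array, 57 control probe sets were left out and 31042 tested. RMA shrinks differences between low intensities, and precision depends on how many arrays there are. Probe sets were named from the platform annotation, in which 20826 have 1 symbol, 436 several and 9780 none; 20758 were found in the RefSeq gene table.

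Terms for treatment and experiment were fitted to all 8 arrays with limma 3.58.1 in R 4.3.3 (3 residual and 3.913 prior degrees of freedom), and p-values were adjusted by Benjamini-Hochberg over 31042 probe sets. The labels share replicate numbers across treatments, and the methods divide each array by DMSO of the same experiment. Deviations of arrays with the same number correlated at 0.728 to 0.829 between treatments. The script was tested on simulated data. Figures were drawn with Python 3.11.15 and matplotlib 3.10.9.

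The members and lists were chosen with earlier results of these data known. The rule for named genes takes the members, up to 4 genes of each list with the smallest adjusted p together with Acan, Hapln1, Col2a1, Sox9 and Egr1, and the 3 genes most like each member above the 40th percentile of level. Where a listed gene had several probe sets, the one with the highest mean was used. Tnmd, Clec3b, Col1a1, Ptprc, Adgre1, Cd14, Pecam1, Tek, Fmod and Prelp were also named, after their values were seen. Sox9 was not analysed here. Alternatives were quantile normalization, no centring, a filter on low values, other variance priors, other sets of arrays, other fold thresholds and leaving out each array.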

Additional observations from a re-analysis of the deposited data

How the results depend on the processing

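The fit with no replicate block gave 0 members called for TNFα over DMSO, against 5 with the experiment as a block, and for U0126+TNFα over TNFα and over DMSO it gave 0 against 1 and 2.

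In the following, the count with all 8 arrays and the planned settings stands first. The share of all probe sets called was not counted under the other settings, so those counts show only how the member calls depend on the setting. For TNFα over DMSO, 5 members were called, 2 (Cnmd and Mia) when only the arrays compared were fitted, and 3 to 5 when each array was left out. For U0126+TNFα over U0126, 0 were called, 1 (Mia) with a trended prior, 1 with a robust prior, 1 with 1 probe set a gene and 1 with only the arrays compared, and 0 to 1 with an array left out. For U0126+TNFα over TNFα, 1 was called, 2 with a trended prior, 2 with 1 probe set a gene and 3 with only the arrays compared, and 0 to 4 with an array left out. For U0126+TNFα over DMSO, 2 were called, 1 each with quantile normalization, no centring, a filter on low values or only the arrays compared, and 0 to 2 with an array left out. For U0126 over DMSO and for the difference of responses, 0 were called with each array left out. Where this left 1 array in a treatment, its spread was taken from the other treatments.

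By the fold rule, 3 members were past it and 2 dependent. There were 1 and 1 (Mia) at a threshold of 2, and 5 and 4 in experiment 1 alone. With quantile normalization, a threshold of 1.3 or the mean fold there were 4 and 3, with Matn1 added to both. A looser setting also lets through more of all probe sets, and their share was not counted under these alternatives.

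Of 36 member comparisons, 8 changed direction under some alternative, and all were uncalled. Mia in U0126 over DMSO was -0.0288 with quantile normalization. With an array left out, log2 fold changes ran from -0.133 to 0.171 for Mia, -0.0248 to 0.209 for Comp and -0.504 to 0.379 for Clec3a in U0126 over DMSO, -0.0829 to 0.0131 for Comp in U0126+TNFα over U0126, -0.0899 to 0.0663 for Chad in U0126+TNFα over TNFα, and -0.112 to 0.0948 for Cnmd, -0.0597 to 0.174 for Comp and -0.732 to 0.152 for Clec3a in U0126+TNFα over DMSO.

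Arrays hold no count of molecules, so no read depth applies. Whether the brightest probe sets were near the upper limit of the array was not measured. With 2 arrays a treatment, intervals are wide, most of all for Clec3a. Chad was near the low end of intensity, and its level over background was not measured.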
